A study of Mus musculus with 21 samples.

Results

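Inflammasomes are cytosolic complexes that turn the detection of microbial products or damage into inflammatory cell death, and 9 genes that encode their sensors, adaptor and effectors were followed in inflammatory monocytes (IMs). The 9 genes were Aim2, Casp4, Gsdmd, Pycard, Nlrp1a, Nlrp1b, Nlrc4, Naip2 and Naip5, chosen for their roles and taken by symbol from a count table of 23420 genes. All 9 were found in the table, and all 9 passed the filter on low counts in each comparison.

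The study sequenced the RNA of sorted IMs, with 21 samples in 5 groups. Tumor-infiltrating IMs (TIMs) came from primary lung tumors (n = 5) and lymph node metastases (n = 5) that the squamous lung cancer line KAL-LN2-E1 (LN2E1) formed in FVB mice after injection into the lung. TIMs also came from lungs of DBA2 mice that received the LN4K1 line by vein (n = 5), and bone marrow IMs (BM IMs) came from healthy FVB mice (n = 3) and healthy DBA2 mice (n = 3). Cells were enriched with a monocyte kit and sorted as live CD45+ SiglecF- CD11b+ Ly6G- Ly6Chi cells, so that cells of another type that met these marks contributed RNA too. The labels name no engineered allele and no drug for any group. Tumor and tissue of origin changed together in each comparison with BM IMs, and strain, line, route and tissue changed together between the LN2E1 and LN4K1 models, so that these cannot be told apart. The study's methods call the replicates technical, so that p values measure the spread between these samples, which may be technical. The values are read counts, given here as CPM, counts scaled to the size of their library with TMM factors over the 21 libraries.

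Several of the sensors answer to different signals. AIM2 binds double-stranded DNA in the cytosol, mouse caspase-4 (also called caspase-11) binds bacterial lipopolysaccharide, and NLRP1 proteins respond to bacterial proteases and to loss of the peptidases that hold them in check. NAIP5 and NAIP2 bind bacterial flagellin and the rod of the bacterial type III secretion system and then assemble with NLRC4. Pycard encodes ASC, the adaptor that links sensors to caspase-1, and Gsdmd encodes gasdermin D, whose fragment forms pores in the plasma membrane after cleavage by these caspases.

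Depth was high and even, but the number of genes with at least 10 counts was not. It was 11047 in lymph node TIM replicate 1, against 12433 to 12828 in the rest of its group. It was 12015 in LN4K1 lung TIM replicate 3, against 13272 to 13695 in the rest of its group. Each of these libraries held the highest Casp4 and the lowest Gsdmd, Nlrp1a and Nlrp1b of its group. The part of this in the results was not tested. Total counts lay between 80772922 and 101043568 per library, so that a count of 3, the limit that a count of 0 allows, corresponded to at most 0.0405 CPM. The lowest count of any of the 9 genes in any library was 171, for Nlrp1a in a lymph node TIM library. Markers of the sort were present in every library, with Ptprc (CD45) at 616 CPM or more, Itgam (CD11b) at 258 CPM or more and Ly6c2 at 974 CPM or more. Their levels differed between groups. Ly6c2 lay between 974 and 1688 CPM in TIMs and between 2434 and 3600 CPM in BM IMs. Ptprc lay between 1204 and 3012 CPM in TIMs and between 616 and 741 CPM in BM IMs. Itgam ranged from 327 to 1604 CPM in TIMs and from 258 to 546 CPM in BM IMs. Marker lists of other cells differed between groups. The summed level of 6 eosinophil genes lay between 642 and 1190 CPM in FVB BM IMs and between 446 and 1138 CPM in DBA2 BM IMs, against 5.87 to 74.7 CPM in TIMs, with Prg2 and Il5ra at 3 counts or fewer in all lymph node TIM libraries. The 9 measured neutrophil genes summed to between 3941 and 5000 CPM in FVB BM IMs and between 650 and 2334 CPM in the other groups. The 7 measured macrophage genes summed to between 2307 and 5571 CPM in TIMs and between 865 and 2036 CPM in BM IMs. The 5 fibroblast genes summed to between 361 and 1101 CPM in primary tumor TIMs and to at most 0.359 CPM in BM IMs, where Col3a1, Dcn and Pdgfra were at 3 counts or fewer. The 5 lung epithelium genes summed to between 130.03 and 859 CPM in primary tumor TIMs, between 6.48 and 101 CPM in LN4K1 lung TIMs and at most 1.58 CPM in the other groups. Endothelial genes summed to between 51.5 and 110.2 CPM in LN2E1 TIMs and to at most 15.8 CPM elsewhere, and squamous epithelial genes to between 49.1 and 79.3 CPM in primary tumor TIMs, between 9.81 and 140.1 CPM in lymph node TIMs and at most 2.05 CPM in BM IMs. The part of these cells in the results below was not tested. In bulk samples, fewer cells that express a gene and less of its RNA per cell cannot be told apart.

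The promoter of Casp4 is shown because Casp4 was the member with the largest change in TIMs. It was read from RefSeq (GRCm38.p6), as 250 bases before the RefSeq start on the plus strand at chr9:5308599-5308848, and capitals mark the matches described next.
Casp4: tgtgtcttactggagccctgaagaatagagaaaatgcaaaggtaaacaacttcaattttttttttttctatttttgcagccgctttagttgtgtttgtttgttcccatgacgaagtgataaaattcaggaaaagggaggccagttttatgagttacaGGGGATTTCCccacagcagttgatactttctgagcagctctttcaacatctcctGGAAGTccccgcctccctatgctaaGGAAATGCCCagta
Promoters were given for 8 of the 9 genes, and none for Gsdmd. In windows of 250 bases and on both strands, the letters GGAAGT, the core recognised by the myeloid factor PU.1, matched in 8 of the 8 promoters and in 20% of 27025 promoters. In Casp4 this match began 39 bases before the start, as the capitals show. The 8 promoters are not independent. Those of Nlrp1a and Nlrp1b are nearly alike around the match, and so are those of Naip2 and Naip5. The core of the interferon-stimulated response element, the letters TTCNNNGAA of the gamma-activated site, TGANTCA of AP-1 and a strict form of the NF-kB motif, with 1 free base, matched in 0 of the 8, against 3.04%, 7.18%, 6.87% and 0.337% of all promoters. A looser form of the NF-kB motif, with 2 free bases, includes the strict one and was chosen after the sequence was seen. It matched at 2 places in Casp4, 93 and 14 bases before the start, where the capitals show it, in none of the other 7 promoters and in 1.40% of all promoters. A match describes letters in this window of the reference genome and does not show a binding site.

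Casp4, the caspase that senses lipopolysaccharide, was higher in the TIMs of all 3 tumor groups than in BM IMs of their strain. The gene lies on the plus strand of chromosome 9 from 5308828 to 5336783 in the GENCODE vM21 annotation of GRCm38 (mm10). This annotated start lies inside the promoter window shown above, which ends at the RefSeq start. The looser NF-kB match nearest the RefSeq start thus lies within the annotated gene. FVB BM IM libraries held 17.4, 17.6 and 12.1 CPM, primary tumor TIM libraries 60.9, 71.4, 71.5, 65.7 and 67.4 CPM, and lymph node TIM libraries 108, 76.8, 75.3, 68.2 and 80.1 CPM. DBA2 BM IM libraries held 16.3, 19.3 and 16.9 CPM, and LN4K1 lung TIM libraries 70.2, 65.7, 102, 78.3 and 63.7 CPM. Every TIM library was thus above every BM IM library of either strain. The log2 fold change was 2.08 in primary tumors (standard error, SE, 0.14, adjusted p = 2.12e-06 in edgeR, with the Benjamini-Hochberg method applied to all genes tested). It was 2.38 in lymph node metastases (SE 0.21, adjusted p = 2.01e-05) and 2.04 in LN4K1 lung metastases (SE 0.19, adjusted p = 5.28e-05). These are 4.23-fold, 5.20-fold and 4.12-fold. By the study's thresholds for differentially expressed genes (DEGs), which were an adjusted p under 0.0001 with a log2 fold change above 1 in size, Casp4 passed in all 3 comparisons, and it was the only one of the 9 genes to pass in any. DEGs made up 12.9%, 5.71% and 2.97% of the genes tested in the primary tumor, lymph node and LN4K1 lung comparisons, and by log2 fold change Casp4 ranked 2434 of 14569, 1112 of 13273 and 1144 of 13624 from the top. When each library was left out in turn, Casp4 stayed under an adjusted p of 0.05 in all 24 fits. It passed the thresholds for DEGs in 8 of 8 fits in primary tumors, 3 of 8 in lymph node metastases and 1 of 8 in LN4K1 lung metastases, with adjusted p values up to 2e-05, 0.000204 and 0.000812.

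The size of the Casp4 change did not differ detectably between models, nor did its level between the BM IMs of the strains. The change in primary tumors minus that in LN4K1 lung metastases was 0.06 on the log2 scale (95% interval -0.36 to 0.48, adjusted p = 0.901 for edgeR's interaction term). DBA2 BM IMs and FVB BM IMs differed by 0.18 on the log2 scale (95% interval -0.17 to 0.53, adjusted p = 0.503 in edgeR). Lymph node TIMs were 0.29 above primary tumor TIMs (95% interval 0.05 to 0.53), where an unadjusted p of 0.0383 in edgeR became 0.163 after adjustment.

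Gsdmd, the pore-forming substrate of these caspases, was also higher in TIMs in each tumor group, by a smaller amount. It lies on the plus strand of chromosome 15 from 75862327 to 75867408. In FVB BM IMs the libraries held 198, 213 and 180.0 CPM, primary tumor TIM libraries 356, 327, 319, 290.3 and 297 CPM, and lymph node TIM libraries 234, 314, 305, 342 and 304 CPM. DBA2 BM IM libraries held 239.8, 209.7 and 210.3 CPM and LN4K1 lung TIM libraries 343, 333, 271, 330.2 and 276 CPM. Within a strain, TIM and BM IM libraries did not overlap, although the lowest lymph node TIM library lay under 1 DBA2 BM IM library. The log2 fold changes were 0.67 (SE 0.10, adjusted p = 0.000232 in edgeR), 0.61 (SE 0.14, adjusted p = 0.0061) and 0.42 (SE 0.13, adjusted p = 0.0399) in the primary tumor, lymph node and LN4K1 lung comparisons. The call at an adjusted p of 0.05 held in all fits that left out a library in both LN2E1 groups. In LN4K1 lung metastases it held only without LN4K1 lung TIM replicate 3 or 5. Without DBA2 BM IM replicates 1, 2 or 3 the adjusted p was 0.0692, 0.15 and 0.147, and without LN4K1 lung TIM replicates 1, 2 or 4 it was 0.0806, 0.0694 and 0.0856. The difference between the changes in primary tumors and LN4K1 lung metastases was 0.27 on the log2 scale (95% interval -0.04 to 0.57, adjusted p = 0.228 for edgeR's interaction term).

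**Figure D1:**
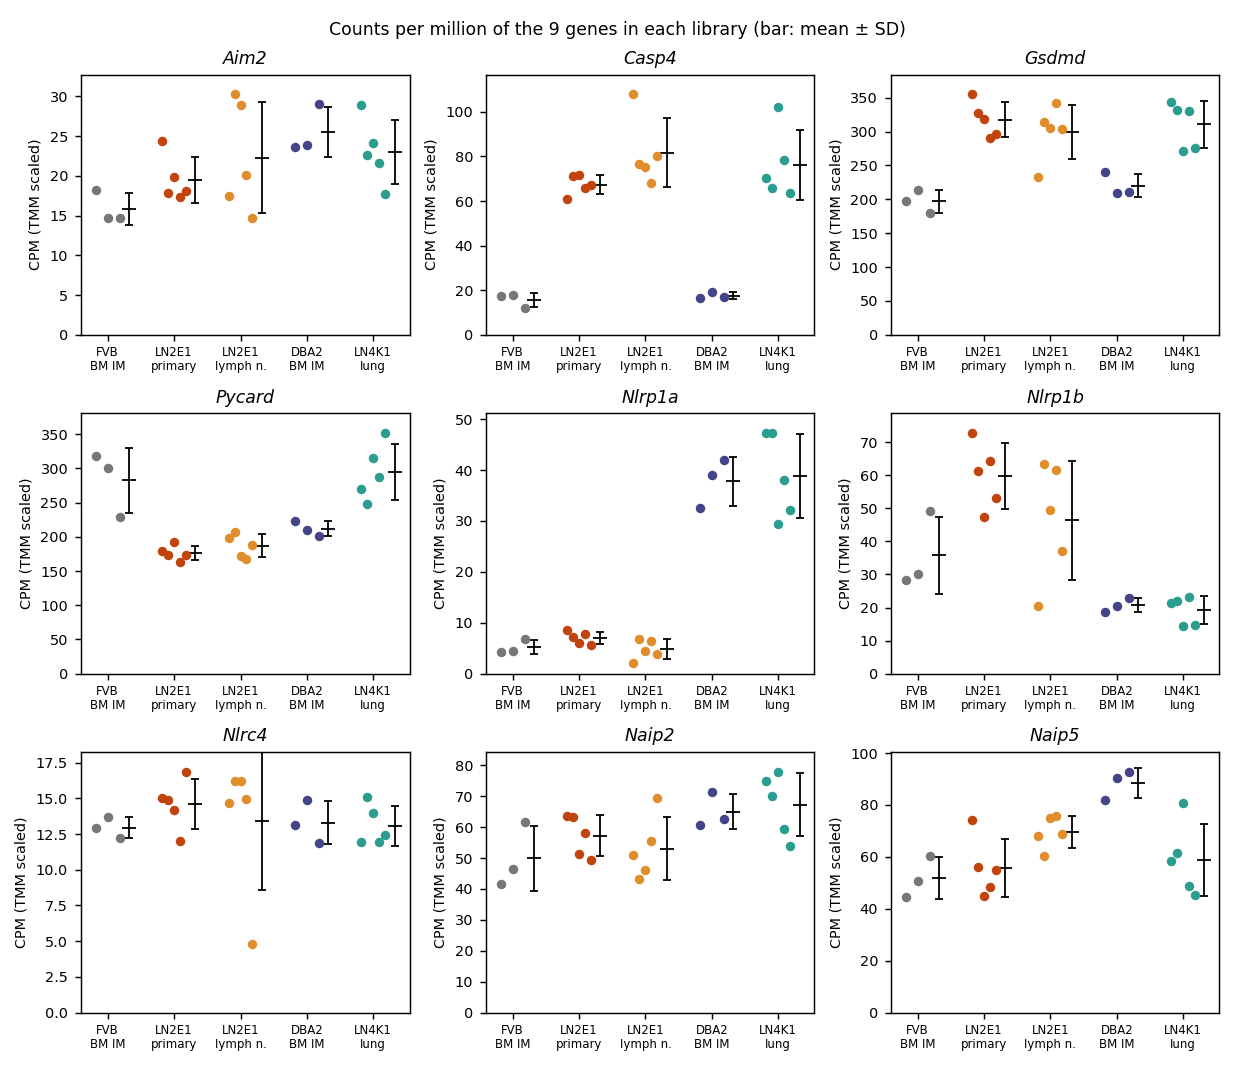
Level of each of the 9 genes in every library, as TMM-scaled CPM on the vertical axis (starting at 0), with the 5 groups on the horizontal axis; each point is 1 library, and the black bar beside the points gives the group's mean ± SD. Casp4 lies between 12.1 and 19.3 CPM in all BM IM libraries and between 60.9 and 108 CPM in all TIM libraries, Nlrp1a is low in the 3 FVB groups, and 1 lymph node TIM library stands apart at 4.83 CPM for Nlrc4.

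Pycard, the gene of the adaptor ASC, moved in opposite directions in the LN2E1 and LN4K1 models. It lies on the minus strand of chromosome 7 from 127989708 to 127993867. FVB BM IM libraries held 319, 301 and 229 CPM, primary tumor TIM libraries 179, 174, 193, 164 and 173 CPM, and lymph node TIM libraries 199, 207, 173, 168 and 189 CPM. DBA2 BM IM libraries held 223, 211 and 201 CPM, and LN4K1 lung TIM libraries 270.3, 248, 316, 287 and 352 CPM. All 10 LN2E1 TIM libraries lay under the lowest FVB BM IM library, and all 5 LN4K1 lung TIM libraries lay above the highest DBA2 BM IM library. Pycard fell by 0.70 on the log2 scale in primary tumors (SE 0.11, adjusted p = 0.000403 in edgeR) and by 0.60 in lymph node metastases (SE 0.13, adjusted p = 0.00565). It rose by 0.40 in LN4K1 lung metastases (SE 0.13, adjusted p = 0.0463). The primary tumor change minus the LN4K1 lung change was -1.08 on the log2 scale (SE 0.16, adjusted p = 0.000518 for edgeR's interaction term), and it passed in 16 of 16 fits that left out a library. Both falls also passed in all 8 fits each, with adjusted p values up to 0.00444 and 0.0367. The rise in LN4K1 lung metastases passed only without LN4K1 lung TIM replicate 2 or 3. Its adjusted p was 0.0986, 0.142 and 0.166 without DBA2 BM IM replicates 1, 2 and 3, and 0.06, 0.0807 and 0.0835 without LN4K1 lung TIM replicates 1, 4 and 5.

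Pycard was also compared between the BM IMs of the strains. DBA2 BM IM libraries lay under FVB BM IM libraries with no overlap, at a log2 difference of -0.39 (SE 0.12, adjusted p = 0.0539 in edgeR), and without FVB BM IM replicate 3 the difference was -0.51 (adjusted p = 0.00176). Against the BM IMs of the other strain, LN4K1 lung TIMs differed by less than 0.01 on the log2 scale (adjusted p = 0.993), lymph node TIMs by -0.20 (adjusted p = 0.154) and primary tumor TIMs by -0.27 (adjusted p = 0.00874), so that only the fall in primary tumors stayed called. In these fits strain changes together with tumor and tissue. The part of the BM IM levels in the directions was not tested. Reads carried no strand, and 12.8% of the exonic bases of Pycard lie under Gm45205, an unspliced model on the opposite strand, so that reads of both cannot be separated.

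The counts of called members can be read against all genes tested. At an adjusted p under 0.05, 4 of the 9 genes differed between primary tumor TIMs and FVB BM IMs (Casp4, Gsdmd and Nlrp1b higher, Pycard lower), a share of 44.4% against 61.9% of all 14569 genes. In lymph node metastases 3 of 9 genes differed (Casp4 and Gsdmd higher, Pycard lower), which is 33.3% against 37.4% of 13273 genes. In LN4K1 lung metastases 4 of 9 genes differed (Casp4, Gsdmd and Pycard higher, Naip5 lower), which is 44.4% against 24.9% of 13624 genes. TIM and BM IM libraries did not overlap for 3, 3 and 4 of the 9 genes, against 58.1%, 42.9% and 34.8% of all genes. The median log2 fold change of the 9 genes was 0.28, 0.37 and -0.03, beside 0.08, -0.04 and 0.03 over all genes. The first 2 comparisons share the FVB BM IM libraries. The number of members called was therefore near or under the background in the LN2E1 model, and Casp4 had the largest change of the 9 genes in each of these 3 comparisons.

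**Figure D2:**
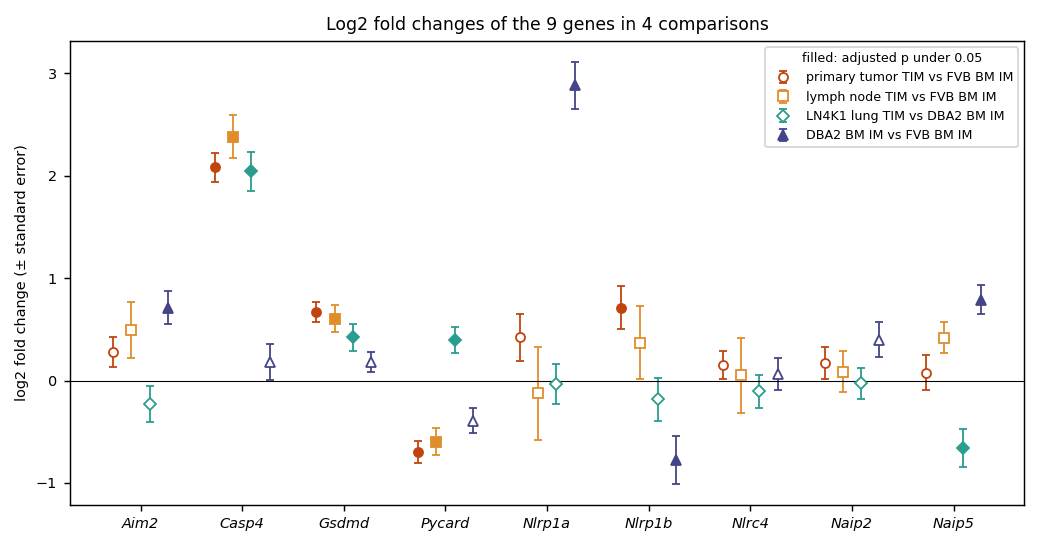
Log2 fold change of each of the 9 genes (vertical axis, with its standard error as the bar) in the 3 comparisons of TIMs with BM IMs of the same strain and in the comparison of DBA2 with FVB BM IMs; filled symbols have an adjusted p under 0.05. The Casp4 points lie between 2.04 and 2.38 in all 3 TIM comparisons, the Pycard points lie on both sides of 0, and the Nlrp1a point at 2.88 belongs to the strain comparison.

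The Nlrp1 genes differed between strains in opposite directions. Nlrp1a and Nlrp1b are neighbouring paralogs on the minus strand of chromosome 11, from 71092236 to 71144704 and from 71153102 to 71230733, in a locus known for sequence differences between inbred mouse strains. Stretches of their promoters (RefSeq, GRCm38.p6) are shown because these stretches differ at few bases in this reference genome. The genes were read at very different levels. The stretches lie on the minus strand at chr11:71144773-71144941 and chr11:71230815-71230983, end before the place where an alignment without gaps broke down, and have 158 of 169 bases in common (93.5%); capitals mark the 11 bases that differ.
Nlrp1a: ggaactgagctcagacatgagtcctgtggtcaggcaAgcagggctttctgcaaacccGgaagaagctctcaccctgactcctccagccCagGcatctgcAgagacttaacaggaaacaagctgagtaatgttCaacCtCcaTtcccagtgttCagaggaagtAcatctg
Nlrp1b: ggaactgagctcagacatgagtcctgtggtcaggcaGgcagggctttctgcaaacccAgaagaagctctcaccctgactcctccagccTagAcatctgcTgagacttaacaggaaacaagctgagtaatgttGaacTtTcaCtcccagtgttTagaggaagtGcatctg
Promoter bases nearer each start lie outside these stretches and are not in the count of differences. Both stretches hold the letters GGAAGT named above. They come from the reference genome, which is that of another inbred strain. The promoters of the FVB and DBA2 mice were not read and may differ. In the transcripts, 2.07% of the 50-base words of Nlrp1a and 1.45% of those of Nlrp1b also occur in another annotated gene, so that most reads of the reference sequence could be placed on 1 of the 2 genes.

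Nlrp1a was low in every library from FVB mice and higher in every library from DBA2 mice. FVB BM IM libraries held 4.26, 4.49 and 6.77 CPM, primary tumor TIM libraries 8.62, 7.29, 6.03, 7.71 and 5.71 CPM, and lymph node TIM libraries 2.07, 6.82, 4.55, 6.49 and 3.88 CPM. DBA2 BM IM libraries held 32.5, 39.0 and 41.9 CPM and LN4K1 lung TIM libraries 47.2, 47.3, 29.4, 37.95 and 32.2 CPM. The highest library from FVB mice was thus under the lowest from DBA2 mice. Between the healthy BM IMs, DBA2 exceeded FVB by 2.88 on the log2 scale (SE 0.23, 7.38-fold, adjusted p = 0.00015 in edgeR), which ranked 162 of 12905 genes from the top. It just missed the thresholds for DEGs in edgeR, which 0.403% of genes passed in this comparison. Within a strain, Nlrp1a did not differ detectably between TIMs and BM IMs, with log2 fold changes of 0.42 (95% interval -0.03 to 0.87), -0.12 (-1.01 to 0.76) and -0.03 (-0.42 to 0.35). In primary tumors the adjusted p of 0.136 became 0.0267 without FVB BM IM replicate 3, with a log2 fold change of 0.69.

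Nlrp1b showed the opposite strain difference. Libraries of FVB BM IMs held 28.2, 30.1 and 49.2 CPM, primary tumor TIM libraries 72.9, 61.3, 47.4, 64.3 and 53.0 CPM, and lymph node TIM libraries 20.4, 63.3, 49.3, 61.6 and 37.2 CPM. DBA2 BM IM libraries held 18.7, 20.5 and 22.9 CPM and LN4K1 lung TIM libraries 21.5, 22.1, 14.4, 23.0 and 14.7 CPM. Lymph node TIM libraries spread widest, and replicate 1 of that group lay as low as the DBA2 libraries. DBA2 BM IMs were 0.78 lower on the log2 scale than FVB BM IMs (difference -0.78, SE 0.23, adjusted p = 0.0458 in edgeR). That call was lost without FVB BM IM replicate 2 (adjusted p = 0.0702) and without DBA2 BM IM replicates 1, 2 or 3 (0.122, 0.122 and 0.0982). Primary tumor TIMs exceeded FVB BM IMs by 0.71 (SE 0.21, adjusted p = 0.0155), although the third FVB BM IM library lay above the lowest primary tumor TIM library. The primary tumor change minus the LN4K1 lung change was 0.91 (SE 0.31, adjusted p = 0.0393 for edgeR's interaction term), and it passed in 7 of 16 fits that left out a library, with adjusted p values up to 0.118.

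The ratio of the 2 paralogs does not depend on library size. Nlrp1b took 87.3% ± 0.557 (SD, n = 3) of the counts of both genes in FVB BM IMs, 89.4% ± 0.555 (n = 5) in primary tumor TIMs and 90.7% ± 0.503 (n = 5) in lymph node TIMs. It took 35.4% ± 1.03 (n = 3) in DBA2 BM IMs and 33.0% ± 2.73 (n = 5) in LN4K1 lung TIMs. The ratio therefore fell into 2 separate ranges, 86.9% to 91.6% in libraries from FVB mice and 31.3% to 37.8% in those from DBA2 mice. With 3 libraries against 3, the exact permutation test cannot go under p = 0.1 for the strain difference of -51.8 percentage points. Within FVB mice the share was 2.16 points higher in primary tumors and 3.47 points higher in lymph node metastases than in BM IMs (two-sided exact permutation p = 0.0179 for each, the smallest that 5 against 3 allows, adjusted p = 0.0446 over 10 tests). Lymph node TIMs were 1.30 points above primary tumor TIMs (exact permutation p = 0.0159, adjusted p = 0.0446). For LN4K1 lung TIMs the difference from DBA2 BM IMs was -2.40 points (exact permutation p = 0.179, adjusted p = 0.198). The summed level of both genes did not pass between strains, at 41.0 ± 13.0 CPM in FVB BM IMs and 58.5 ± 6.86 CPM in DBA2 BM IMs (log2 difference 0.53, SE 0.22, adjusted p = 0.125 in edgeR). In primary tumor TIMs the sum was 0.68 above FVB BM IMs (SE 0.21, adjusted p = 0.0179).

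**Figure D3:**
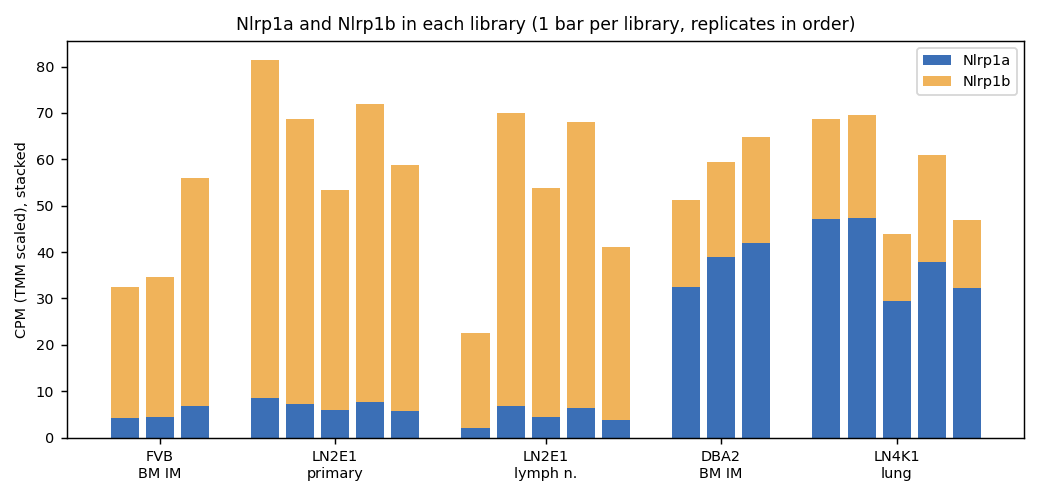
Stacked TMM-scaled CPM of Nlrp1a (lower part of each bar) and Nlrp1b (upper part) in each of the 21 libraries, grouped on the horizontal axis, with 1 bar per library and an axis that starts at 0. In the 13 libraries from FVB mice Nlrp1b makes up most of the bar, with a share between 86.9% and 91.6%, and in the 8 libraries from DBA2 mice Nlrp1a does.

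Reads were aligned to mm10, the genome of another inbred strain. Reads from an allele that differs from that genome can be lost or placed on the paralog, and the part of this in the strain differences was not tested, because the table starts at counts.

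In the NAIP and NLRC4 inflammasome, Nlrc4 and Naip2 passed no test between TIMs and BM IMs of a strain in the main fits. Naip5 passed in LN4K1 lung metastases, and in lymph node metastases it passed only in some alternative fits. Nlrc4, the shared partner of the NAIP proteins, lies on the minus strand of chromosome 17 from 74425438 to 74459142. It lay between 11.9 and 16.9 CPM in 20 of the 21 libraries, with group means of 12.9 ± 0.737 CPM in FVB BM IMs, 14.6 ± 1.76 in primary tumor TIMs, 13.3 ± 1.52 in DBA2 BM IMs and 13.1 ± 1.40 in LN4K1 lung TIMs. Lymph node TIM libraries held 14.7, 16.2, 16.2, 15.0 and 4.83 CPM, so that replicate 5 alone set the wide spread there. The log2 fold changes were 0.15 (95% interval -0.11 to 0.42), 0.05 (-0.67 to 0.77) and -0.10 (-0.42 to 0.21), and between strains 0.07 (-0.25 to 0.38). None of these passed, and the intervals exclude a 2-fold change in each of these comparisons.

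Naip2 and Naip5 are neighbours on the minus strand of chromosome 13, from 100144063 to 100202092 and from 100211739 to 100246323. Of their 50-base words, 19.1% in Naip2 and 36.9% in Naip5 also occur in another gene, mostly in other Naip genes, so that part of their reads is uncertain. Naip2 libraries held 41.7, 46.4 and 61.6 CPM in FVB BM IMs and 60.7, 71.5 and 62.8 CPM in DBA2 BM IMs. Naip2 in TIMs lay between 49.5 and 63.6 CPM in primary tumors, between 43.3 and 69.4 CPM in lymph node metastases and between 54.0 and 78.0 CPM in LN4K1 lung metastases, all ranges that overlap those of the BM IMs. Its log2 fold changes were 0.17 (95% interval -0.13 to 0.47), 0.09 (-0.30 to 0.47) and -0.03 (-0.32 to 0.27). Without FVB BM IM replicate 3, the primary tumor value became 0.37 with 0.0304 as its adjusted p in edgeR.

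Naip5, the flagellin receptor, differed by strain and in LN4K1 lung metastases. FVB BM IM libraries held 44.6, 50.7 and 60.5 CPM and DBA2 BM IM libraries 82.0, 90.3 and 92.9 CPM. Primary tumor TIM libraries held 74.1, 55.9, 44.9, 48.5 and 54.9 CPM, lymph node TIM libraries 68.1, 60.1, 74.9, 75.7 and 68.9 CPM, and LN4K1 lung TIM libraries 58.5, 61.6, 80.6, 48.6 and 45.1 CPM. The DBA2 BM IM libraries were above every other library in the series. DBA2 BM IMs exceeded FVB BM IMs by 0.79 on the log2 scale (SE 0.14, adjusted p = 0.00751 in edgeR), and the call held in 6 of 6 fits that left out a library. LN4K1 lung TIMs were lower than DBA2 BM IMs, at a log2 difference of -0.66 (SE 0.19, adjusted p = 0.0291). This second call held only without LN4K1 lung TIM replicate 3, the highest library of its group. Without the other LN4K1 lung TIM libraries the adjusted p lay between 0.0507 and 0.0651, and without DBA2 BM IM replicates 1, 2 and 3 it was 0.0632, 0.0966 and 0.106. The changes in primary tumors and lymph node metastases were 0.08 (95% interval -0.26 to 0.41) and 0.42 (0.13 to 0.71, adjusted p = 0.0503). The second of these passed without FVB BM IM replicate 3 (0.0246) and without lymph node TIM replicate 1 (0.0455) or 2 (0.0437). It also passed in edgeR with DESeq2's size factors (adjusted p = 0.0477) and in DESeq2 itself (adjusted p = 0.0157). The primary tumor change minus the LN4K1 lung change was 0.76 (SE 0.26, adjusted p = 0.045 for edgeR's interaction term), and it passed in 4 of 16 fits that left out a library, with adjusted p values up to 0.156.

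Within the Naip pair, Naip5 took 51.1% ± 1.41 (SD, n = 3) of the counts of both genes in FVB BM IMs, 49.1% ± 3.81 (n = 5) in primary tumor TIMs and 56.9% ± 4.41 (n = 5) in lymph node TIMs. It took 57.6% ± 1.93 (n = 3) in DBA2 BM IMs and 46.4% ± 2.68 (n = 5) in LN4K1 lung TIMs. Relative to DBA2 BM IMs, the share in LN4K1 lung TIMs was 11.2 points lower (difference -11.2, exact permutation p = 0.0179, adjusted p = 0.0446). It was 7.84 points higher in lymph node than in primary tumor TIMs (exact permutation p = 0.0238, adjusted p = 0.0476). The other 3 differences in this share did not pass. The summed level of both genes was 0.61 higher on the log2 scale in DBA2 than in FVB BM IMs (adjusted p = 0.0216 in edgeR), and in LN4K1 lung TIMs it differed from DBA2 BM IMs by -0.36 (adjusted p = 0.139).

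Aim2, the DNA sensor, lies on the plus strand of chromosome 1 from 173350879 to 173466040. In FVB BM IMs the libraries held 18.2, 14.6 and 14.8 CPM and DBA2 BM IM libraries 23.6, 23.8 and 29.1 CPM, with no overlap. Primary tumor TIM libraries held 24.4, 17.8, 19.8, 17.3 and 18.1 CPM, lymph node TIM libraries 17.5, 30.3, 28.9, 20.2 and 14.7 CPM, and LN4K1 lung TIM libraries 28.9, 22.6, 24.1, 21.6 and 17.7 CPM. TIM and BM IM libraries of a strain overlapped in all 3 comparisons. The log2 fold changes in TIMs were 0.28 (95% interval -0.02 to 0.57), 0.49 (-0.04 to 1.03) and -0.23 (-0.58 to 0.12). The strain difference of 0.71 (SE 0.16, adjusted p = 0.0175 in edgeR) was lost without FVB BM IM replicate 2 (adjusted p = 0.0769) or DBA2 BM IM replicate 3 (0.077). Between DBA2 and FVB BM IMs, 4 of the 9 genes thus differed, Aim2, Nlrp1a and Naip5 higher and Nlrp1b lower, which is 44.4% against 21.1% of 12905 genes. The libraries of the 2 strains did not overlap for 5 of the 9 genes, against 42.0% of all genes.

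No member passed the test between lymph node and primary tumor TIMs of the LN2E1 model. With edgeR 0 of the 9 genes had an adjusted p under 0.05, against 11.7% of 13488 genes, and with DESeq2 also 0. Casp4 (0.29 on the log2 scale) and Naip5 (0.33, adjusted p = 0.145) had an unadjusted p under 0.05 in edgeR. The share of all genes under this looser rule was not computed, so these values cannot be read against it. Without primary tumor TIM replicate 1, Naip5 had an adjusted p of 0.0332. In the comparison of the 2 models, 3 of the 9 interactions passed (Pycard, Nlrp1b and Naip5), against 26.5% of 15182 genes.

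Levels of different genes were compared per length, as CPM per 1000 bases of the principal transcript. Gsdmd stood at 109.9 ± 9.24 and Pycard at 74.5 ± 12.5 in FVB BM IMs, followed by Casp4 (11.0 ± 2.17), Naip2 (10.3 ± 2.16), Naip5 (9.98 ± 1.54), Nlrp1b (8.66 ± 2.81) and Aim2 (5.59 ± 0.71). Nlrc4 (2.74 ± 0.156) and Nlrp1a (1.37 ± 0.368) were lowest. Casp4, Naip2, Naip5 and Nlrp1b lay within their spread of each other. The order depends on the length used. Coding lengths merge the coding bases of all annotated transcripts of a gene. They exceed the principal transcript for Nlrp1a (3945 against 3767 bases) and Nlrp1b (5379 against 4134 bases), which lowers the values per coding base. Pycard has a transcript model of 3800 bases with a coding length of only 579 bases, and per 1000 coding bases it stood above Gsdmd in FVB BM IMs (489 ± 82.2 against 135 ± 11.3). Aim2 stood at 14.9 ± 1.90 per 1000 coding bases, within the spread of Casp4 (14.1 ± 2.78) and with a higher mean than Naip5 (12.3 ± 1.90), Naip2 (11.5 ± 2.40) and Nlrp1b (6.66 ± 2.16), so that its place also moved. In primary tumor TIMs, Casp4 reached 47.0 ± 3.06 per 1000 transcript bases beside 46.5 ± 2.81 for Pycard, but per 1000 coding bases the values were 60.2 ± 3.93 and 305 ± 18.5. In DBA2 BM IMs the order within the Nlrp1 pair was the reverse of that in FVB BM IMs, with Nlrp1a at 10.0 ± 1.28 and Nlrp1b at 5.00 ± 0.513.

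The other genes of the pathway were read from a list of 64 symbols, of which 59 were in the table. In primary tumor TIMs 33 of the 53 tested were higher than in FVB BM IMs and 2 were lower. The numbers were 28 of 52 higher and 0 lower in lymph node metastases, and 24 of 50 higher and 1 lower in LN4K1 lung metastases. Over all genes, 33.3%, 20.2% and 13.9% were higher and 28.6%, 17.2% and 11.0% were lower. The median log2 fold change of the list was 1.14, 0.95 and 0.60, beside 0.08, -0.04 and 0.03 over all genes. DEGs numbered 21, 17 and 7 in the list, all of them higher. The list was written with earlier results of these data known, so its counts are a description.

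Within the list, groups of genes differed. All 4 cytokine genes and inhibitors (Il1b, Il18, Il1a and Il18bp) and all 5 measured genes of the GBP and IRG families, GTPases that act on pathogen vacuoles and bacteria, were higher in each tumor group. Il1b, a main substrate of caspase-1, had log2 fold changes of 7.68, 6.95 and 7.14 (adjusted p = 6.27e-08, 5.07e-08 and 8.63e-05 in edgeR). Il18, the other main cytokine substrate, had 2.40, 2.73 and 1.72, with an adjusted p of 0.000169 in LN4K1 lung metastases. In all 3 comparisons, 5 pathway genes were DEGs, namely Il1b, Il18bp, Gbp2, Gbp3 and Irf1. Il18bp, which encodes a soluble inhibitor of IL-18, had log2 fold changes of 5.01, 5.65 and 4.37. Gbp2 had 5.40, 6.16 and 3.20, and Gbp3 had 3.23, 3.77 and 2.11. Irf1, a transcription factor of the interferon response, had 2.87, 3.60 and 1.86.

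Among the other sensors and the caspases, only some of the genes were called. Nlrp3, the sensor of ion flux and membrane damage, was higher in primary tumor TIMs (log2 fold change 0.54, SE 0.19, adjusted p = 0.0317 in edgeR), a call that held in 4 of 8 fits that left out a library, with adjusted p values up to 0.0883. It differed by -0.37 in lymph node metastases (adjusted p = 0.332) and by -0.69 in LN4K1 lung metastases (adjusted p = 0.0975). Casp1, the caspase that ASC recruits, was higher by 0.27, 0.78 and 1.10 (adjusted p = 0.0446, 0.00812 and 0.0087), and the first of these calls held in 1 of 8 fits, with adjusted p values up to 0.107. Of the 9 measured genes of the PYHIN family, to which Aim2 belongs, 8, 8 and 5 were higher, whereas Aim2 itself was not called in any tumor group. Of the other gasdermin genes and Ninj1, which ruptures the membrane of dying cells, 4, 4 and 2 of the 9 in the table could be tested and none passed, although Gsdmd was called in all 3 comparisons.

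**Figure D4:**
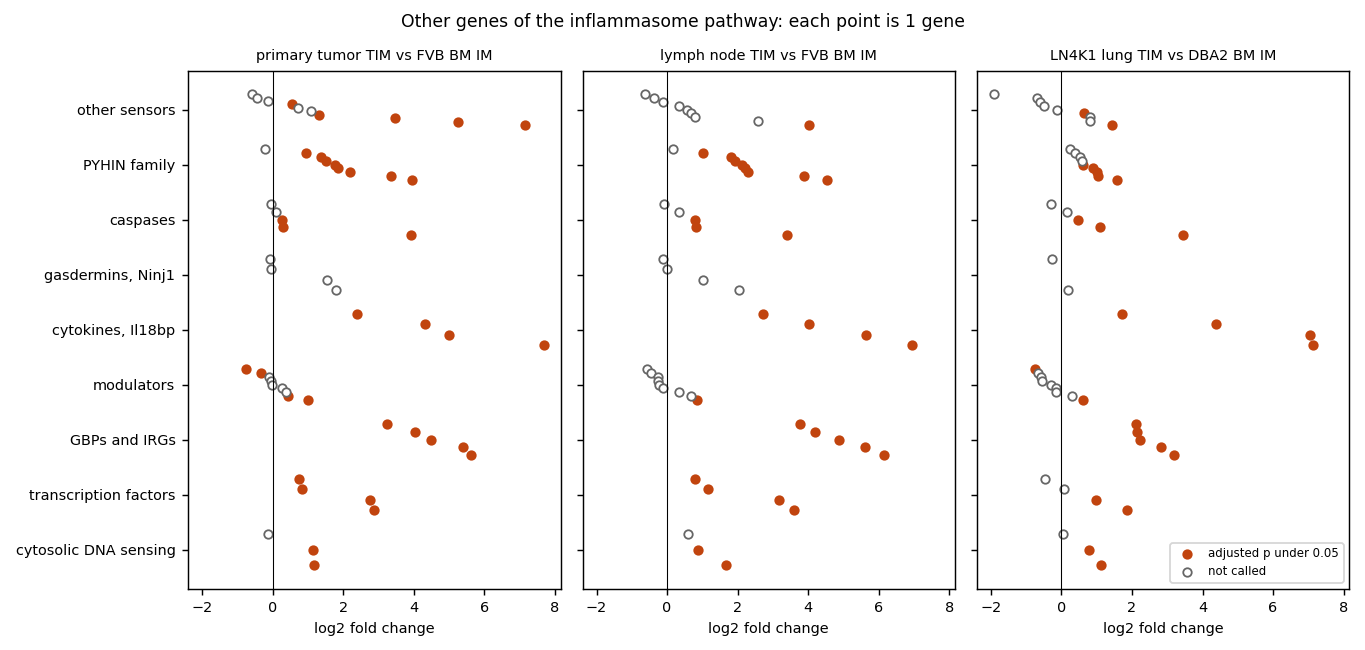
Log2 fold change (horizontal axis) of each other pathway gene tested, 1 point per gene, by role (vertical axis) in the 3 comparisons of TIMs with BM IMs of the same strain; filled points have an adjusted p under 0.05. Cytokine genes and the GBP and IRG families lie to the right of 0 in each panel with all points filled, and gasdermins have no filled point.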

How the data were processed

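RNA was measured in 21 libraries of sorted IMs, made without strand information by full-length cDNA amplification and transposase tagging. According to the methods, BBDuk removed adapters, BBMap placed the pairs on mm10 and featureCounts (1.5.2 in the submitters' processing notes, which also list SAMtools 1.8) gave the counts. The settings of featureCounts are not given in the sources used here. The authors deposited raw counts per gene symbol, and all 21 columns matched a sample. Total counts lay between 80772922 and 101043568. Groups came from the sample labels.

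The main analysis used edgeR 4.0.16 under R 4.3.3, beside limma 3.58.1, with DESeq2 1.42.0 as an alternative. Tables and plots were drawn up under Python 3.11.15 with pandas 2.3.3, numpy 2.4.6, scipy 1.17.1 and matplotlib 3.10.9. Only the libraries of the groups compared entered a fit, with TMM factors, the default filter (minimum count 10, minimum total 15) and edgeR's robust quasi-likelihood F test. Adjusted p values follow Benjamini and Hochberg over all genes tested. Members were called at an adjusted p under 0.05, and DEGs needed one under 0.0001 with a log2 fold change above 1 in size. Both rules were applied to edgeR values, whereas the study used DESeq2 for its DEGs. The standard error (SE) was derived as the size of the log2 fold change over the root of its F statistic, and the 95% intervals rest on it. Shares of paralog counts were compared by two-sided exact permutation tests, adjusted over 10 tests. The steps were tested on simulated counts.

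The text names all 9 members. Of the pathway list it gives single values for Nlrp3, Casp1, Il1b and Il18. It also gives them for each other gene of the list that was a DEG in the same direction in all 3 TIM comparisons. It names Il1a and Ninj1 only as part of their groups. For each member it also names the 2 genes of most similar pattern. The members and lists were chosen with earlier results of these data known. Gene positions and lengths came from GENCODE vM21 (GRCm38) and promoters from RefSeq (GRCm38.p6). The 50-base words were taken from the GENCODE vM21 transcripts. Alternatives were DESeq2's size factors, no filter on low counts, all 5 groups in 1 fit, DESeq2 with unshrunken and shrunken fold changes, a block for the replicate number, BM IMs of the other strain, summed paralog counts and leaving out each library in turn. Shrinkage with DESeq2 was left out for the interaction.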

Additional observations from a re-analysis of the deposited data

Results flagged for a closer look

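In lymph node TIMs, Nlrc4 stood at 4.83 CPM in replicate 5, far from the 14.7 to 16.2 CPM of the other 4 libraries of the group. By Dixon's test this was 1 of 27 groups of 5 libraries in which an extreme library stood apart, and chance alone gives about 1 in 20. The changes of 3 genes differed between the models, tested as the log2 change in LN2E1 primary tumors minus that in LN4K1 lung metastases. The difference was -1.08 for Pycard (adjusted p = 0.000518 from edgeR's interaction test), 0.91 for Nlrp1b (adjusted p = 0.0393) and 0.76 for Naip5 (adjusted p = 0.045). Strain, line, route and tissue cannot be told apart in these differences.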

How the results depend on the processing

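Depth did not limit these genes, since the lowest count was 171. The limits are 3 BM IM libraries per strain, replicates that may be technical, BM as the only healthy tissue, and reads of 2 other strains aligned to mm10. The numbers of called members and of DEGs stayed within 1.5 times under DESeq2's size factors in all comparisons. Against BM IMs of the other strain, 7 members were called and 3 were DEGs in primary tumors, 5 were called in lymph node metastases and 2 were DEGs in LN4K1 lung metastases. Over all genes, these fits called 8920 of 14532 in primary tumors (1866 DEGs) and 5040 of 13218 in lymph node metastases. In LN4K1 lung metastases 594 of 13769 genes were DEGs. Strain differs as well in these fits. With no filter on low counts, 2 members were called in LN4K1 lung metastases, beside 3160 of 17612 genes. For DBA2 against FVB BM IMs, 1 member was a DEG with no filter, with all 5 groups in 1 fit and with DESeq2 (unshrunken or shrunken), against 0. Over all genes, DEGs there numbered 111 of 16692 with no filter and 140 of 15357 with all 5 groups. With DESeq2 they numbered 793 (unshrunken) and 717 (shrunken) of 23420. With all 5 groups in 1 fit, 2 members were called between the strains and 1 interaction was called, beside 1595 and 3188 of 15357 genes.

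The labels do not say whether replicate numbers pair the samples. Same-numbered libraries correlated at -0.100 to 0.0573 in their deviations from the group means. Only in lymph node against FVB BM IMs did each of the first 3 correlate best with its own number. These correlations cannot show whether samples came from the same mice. With the replicate number as a block, 0 members were DEGs in any TIM comparison and 1 was called in LN4K1 lung metastases, beside 1324 of 13624 genes. The block left no gene of the whole table a DEG in these comparisons. Under the block, the lymph node value of Naip2 was -0.071 and the LN4K1 lung values of Nlrp1a and Naip2 were 0.038 and 0.13.

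Directions also turned elsewhere. Against BM IMs of the other strain, log2 fold changes were -0.39 for Aim2, -2.42 for Nlrp1a, -0.19 for Naip2 and -0.67 for Naip5 in primary tumors. They were -0.22 for Aim2, -0.012 for Nlrc4, -0.31 for Naip2 and -0.37 for Naip5 in lymph node metastases, and 0.48 for Aim2, 2.85 for Nlrp1a, 0.37 for Naip2 and 0.13 for Naip5 in LN4K1 lung metastases. With paralog counts summed, values were 0.31 for the Nlrp1 pair in lymph node metastases, 0.13 for the Naip pair between LN2E1 sites and 0.53 for the Nlrp1 pair between strains, where Nlrp1b alone was lower. With all 5 groups in 1 fit, LN4K1 lung values were 0.024 for Nlrp1a and 0.035 for Naip2, and the Casp4 interaction was -0.013, beside -0.011 with no filter on low counts.

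With each library left out in turn, members called numbered 4 to 6 in primary tumors, 3 to 4 in lymph node metastases, 1 to 4 in LN4K1 lung metastases, 0 to 1 between LN2E1 sites, 2 to 6 between strains and 1 to 3 for the interaction. DEGs numbered 1 in primary tumors and 0 to 1 in lymph node metastases, LN4K1 lung metastases and between strains. The Nlrp1b share differed by 1.95 to 2.48 points in primary tumors, 3.26 to 3.79 in lymph node metastases and -3.58 to -1.86 in LN4K1 lung metastases. The Naip5 share differed by -12.3 to -10.2 points in LN4K1 lung metastases, 4.54 to 7.57 in lymph node metastases and 6.59 to 9.62 between LN2E1 sites. Fewer libraries raise the smallest p that these share tests allow. Directions turned for uncalled values: Naip5 in primary tumors (-0.046 to 0.22). In lymph node metastases they turned for Nlrp1a (-0.28 to 0.13), Nlrc4 (-0.034 to 0.27) and Naip2 (-0.034 to 0.28), and in LN4K1 lung metastases for Nlrp1a (-0.13 to 0.051) and Naip2 (-0.083 to 0.048). Between LN2E1 sites they turned for Gsdmd (-0.13 to 0.0041) and Nlrc4 (-0.21 to 0.10), between strains for Nlrc4 (-0.021 to 0.14), and for the Casp4 interaction (-0.086 to 0.18). The cause of these changes was not tested.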

Other observations

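Genes of similar pattern were looked up for each member, by the root mean square difference of centred log2 CPM over the 21 libraries among 11428 genes, as a description with no test. For Casp4 they were Ms4a6b (0.23) and Plac8 (0.26), against a spread of Casp4 itself of 1.0. For Gsdmd they were Rnf34 and Sfpi1, the symbol in these data for the gene of PU.1 (0.12 and 0.13, own spread 0.29), and for Pycard Tmem208 and Isca2 (0.11 each, own spread 0.34). For Nlrp1a they were Mapk7 (0.50) and Gm13212 (0.52), beside an own spread of 1.43. Nlrp1b was nearest to Tm9sf4 (0.28) and Stk35 (0.34), with an own spread of 0.75. Aim2 was nearest to Atf2 (0.23) and Vezf1 (0.25), with an own spread of 0.33, and Nlrc4 to Pitrm1 (0.29) and N4bp2l2 (0.32), with 0.36. Naip2 was nearest to Vps13b and Cdk9 (0.18 each, own spread 0.25), and Naip5 to Stx16 and Ccni (0.21 each, own spread 0.33). A difference near the own spread of a gene shows little likeness. All points share the same 21 libraries.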
